A study of Mus musculus with 16 samples.

Results

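Synaptic vesicle and exocytosis genes were described in dorsal root ganglia of naive mice, in total RNA of the whole ganglion (IN) and in RNA pulled down with tagged ribosomes of Nav1.8 neurons (IP). The genes were chosen by symbol alone: synaptotagmins (Syt), syntaxins (Stx), syntaxin-binding proteins (Stxbp), synaptobrevins (Vamp), the numbered Snap genes, complexins (Cplx), synapsins Syn1, Syn2 and Syn3, and Rab3a to Rab3d. This gave 61 genes of 53379 in the files: 17 synaptotagmins, 15 syntaxins, 7 syntaxin-binding proteins, 6 Vamp genes, 4 Snap genes of the SNARE family, 4 complexins, 4 Rab3 genes, 3 synapsins and Snap91. All 61 are annotated as protein-coding genes. Snap91 matches by name but encodes AP180, a clathrin adaptor, and is kept apart.

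All mice, female and male littermates aged 8 to 12 weeks on a C57BL/6J background, carried Nav1.8Cre and the Rosa26fsTRAP allele. Cre driven by the Scn10a promoter switches on a fusion of EGFP and ribosomal protein L10a in neurons that make the sodium channel Nav1.8, most of which are nociceptors. Every group carried both alleles, so IN and IP differ by the pulldown and not by genotype. Ganglia of 3 mice of 1 sex were pooled for each of 4 female and 4 male pools, and each pool gave 1 IN and 1 IP library, 16 in all. The pool is the replicate, the spread between single mice is not seen, and a Cre line also marks cells that made Nav1.8 only earlier in life.

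Vesicle release is driven by SNARE proteins. A synaptobrevin on the vesicle zips together with a syntaxin and a SNAP protein on the target membrane, with a syntaxin-binding protein of the Munc18 group holding the complex in place, complexin clamping it and synaptotagmin triggering fusion when calcium enters. Rab3 GTPases and synapsins bind vesicles before they dock. Sensory neurons use these proteins to release glutamate at central terminals in the spinal cord and peptides from dense-core vesicles, and other SNAREs of the same families carry membrane traffic in every cell type.

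Values are TPM, abundances corrected for gene length that sum to a fixed total per library. No read counts can be had from them, and the depth of a library is not known. Protein-coding genes held 9.58% to 13.3% of the total in IN and 44.9% to 79.5% in IP, so TPM were rescaled between libraries by the median ratio over the tested genes, and levels below are such scaled TPM. The IP libraries of female pools 2 (44.9%) and 4 (57.6%) had the lowest protein-coding shares. Of the 61 genes, 54 were tested, which required a mean deposited TPM of at least 1 in IN or in IP. Stx11, Syt15 and Syt16 passed through the IP mean alone and Vamp5 through the IN mean alone.

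The tissue and the pulldown were checked against marker genes. All 10 nociceptor markers were higher in IP, and their summed level ran from 969 to 1174 scaled TPM in IN and from 2567 to 3653 in IP. Of 8 markers of large-diameter sensory neurons 7 were lower, with sums of 460.5 to 583 in IN and 189.9 to 298 in IP. All 8 satellite glia markers (sums 945 to 1251 in IN, 129 to 286 in IP) and all 7 myelinating Schwann cell markers (2328 to 3476 in IN, 389.8 to 999 in IP) were lower. So were the 7 tested macrophage markers of 8 (78.0 to 127.5 in IN, 6.82 to 26.9 in IP), all 6 endothelial (26.9 to 34.1, then 2.03 to 8.39), all 6 fibroblast (794 to 1098, then 84.2 to 252) and all 6 skeletal muscle markers (38.4 to 408, then 4.90 to 179). Of 6 mast cell and granulocyte markers 2 were tested and both were lower, with sums of 47.8 to 145 in IN and 3.81 to 22.4 in IP. Runx3, Adgre1, Kdr and Tie1 were among markers tested through the IN mean alone, where they are high, so their falls are descriptions only. Cd68, Cma1, Tpsb2 and Mcpt4 were listed at 0 in some IP libraries, and no marker was at 0 in every IP library. IP of female pool 2 had the lowest nociceptor sum and the highest sum of every other list except large-diameter neurons and fibroblasts. These sums move with every IP against IN difference below. Their part in those differences was not tested, and in bulk RNA fewer cells of a type cannot be told apart from less RNA per cell.

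Several genes of the release machinery were among the highest of the 61 in both fractions, while Stx1a ranked 38 in IN and 27 in IP. Snap25, the SNARE of the presynaptic membrane, was the highest of the 61 genes in IN at 455 ± 71.0 scaled TPM (SD, n = 8 pools) and in IP at 332 ± 43.5. In IN it was followed by the complexin Cplx1 (205 ± 21.9), the synaptotagmin Syt11 (181.5 ± 12.3) and a run of 4 genes whose spreads overlap, Vamp1 (122.8 ± 12.2), Rab3a (115 ± 5.61), Syt4 (103.5 ± 11.7) and Vamp2 (100.1 ± 16.1). In IP the order after Snap25 was Syt11 (293 ± 27.1), Syt4 (204 ± 27.6), Cplx1 (193 ± 25.0), Rab3a (172 ± 14.5) and Vamp2 (162 ± 23.8). Syt4 and Cplx1 did not differ beyond their spread there. Vamp1 moved from rank 4 in IN to rank 14 in IP and Syt2 from rank 8 to rank 21.

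**Figure D1:**
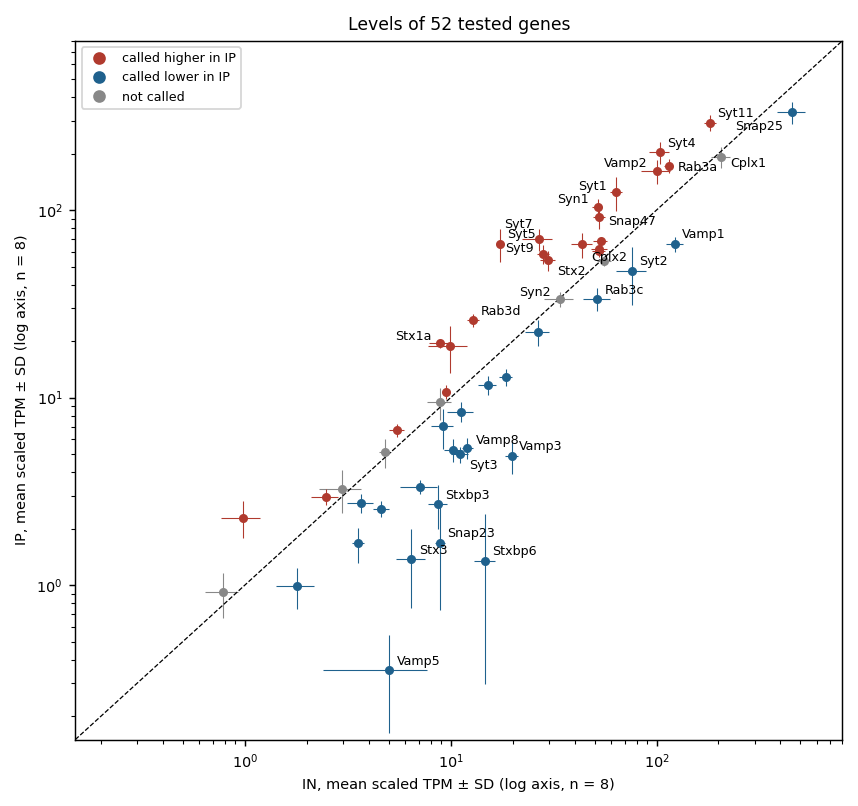
Mean scaled TPM in IN (x axis) and IP (y axis) for 52 of the tested genes, both axes logarithmic, with SD over 8 pools as bars. The dashed line marks equal levels. Snap25 is the highest in both fractions, and Stxbp6 and Vamp5 lie farthest below the line. Vamp5 was tested through its IN mean alone.

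Together the 61 genes held 0.830% to 1.04% of protein-coding TPM in IN and 0.870% to 0.989% in IP, ranges that overlap. Of the 7 genes not tested, Syt8 was listed at 0 in all 16 libraries, Cplx3 and Stx19 in all 8 IP libraries and Cplx4 in all 8 IN libraries. Syt10, Syt13 and Syt17 were above 0 in every library. In deposited TPM, on which genes were chosen for testing, Syt10 averaged 0.137 in IN and 0.831 in IP, Syt13 0.547 and 0.397, and Syt17 0.278 and 0.296. In scaled TPM, as used for levels elsewhere, Syt10 averaged 0.291 in IN and 0.367 in IP. Syt13 averaged 1.18 ± 0.191 and 0.185 ± 0.0735, and Syt17 0.612 ± 0.0882 and 0.139 ± 0.0993.

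Across all pools 23 of the 54 tested genes were higher in IP and 24 lower (limma with the pool as a block, adjusted p under 0.05), and 7 did not pass. That is 42.6% higher and 44.4% lower, beside 40.5% and 38.9% of all 16099 genes tested, so the shares were close to those of the whole table. Counts by family and role below have the same shares of all genes as their background. The median log2 change was 0.03 for these genes and 0.02 for all genes. All log2 changes here are of scaled TPM + 1, which understates the change of low genes. The change was positive in all 8 pools for 20 genes (33.2% of all genes) and negative in all 8 for 22 (33.0%). In 15 genes every IP value was above every IN value (22.4% of all genes) and in 17 every IP value was below (26.0%). A rise of at least 1 log2 unit was seen in 4 genes (3.16% of all genes) and a fall of at least 1 in 8 (13.1%). The counts of 23 and 20 higher include Syt16, tested through its IP mean alone. The counts of 24, 22, 17 and 8 lower include Vamp5, tested through its IN mean alone.

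The scale sets these counts. In the main scaling 51.0% of all calls were higher. Quantile normalization put the median gene at 0.15 and gave 24 genes higher and 25 lower, with 61.15% of all calls higher. Rescaling to the protein-coding total put it at -0.17 and gave 18 higher and 26 lower, with 35.1% of all calls higher. On deposited TPM without scaling the median gene was higher by 1.84, 94.0% of all calls were higher, and the counts were 49 higher and 2 lower. Relative to the median gene, 7 of the 54 genes had another sign on deposited TPM (Cplx1, Rab3b, Snap91, Stx4a, Syn2, Syn3 and Syt15), 3 under quantile normalization (Stx12, Stx7 and Vamp4) and 0 under the protein-coding total. Calls were lost for Stx6, Stx7, Stx11 and Stxbp2 under quantile normalization, for Stx8, Stx12, Syn3, Snap29 and Vamp4 under the protein-coding total, and for Snap23, Stx3 and Vamp3 on deposited TPM. Calls were gained for Rab3b, Syt14, Stx18, Syt15, Snap91 and Cplx1 under quantile normalization, for Snap91 and Cplx1 under the protein-coding total, and for all 7 genes not called before on deposited TPM. Directions below are therefore relative to the bulk of the tested genes. Without IP and IN of female pool 2 the counts were again 23 and 24.

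**Figure D2:**
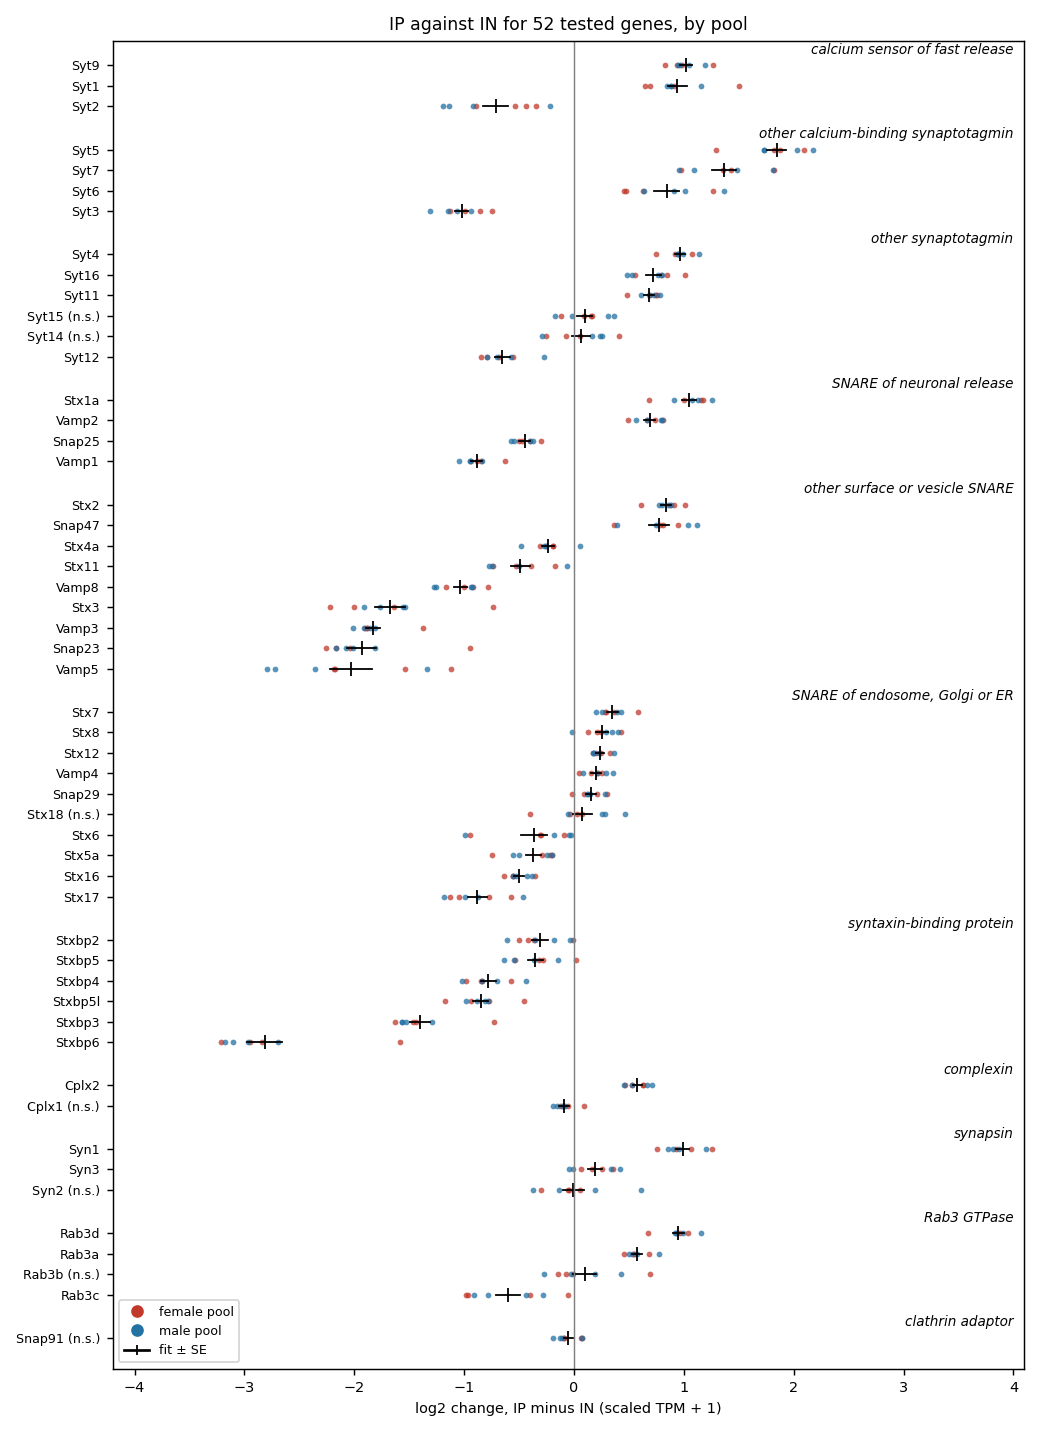
Log2 change, IP minus IN, of scaled TPM + 1 for 52 of the tested genes, grouped by role. Points are single pools (red female, blue male), the black tick and bar are the limma estimate ± SE, and n.s. marks the 7 genes that did not pass. Syt5 lies farthest to the right and Stxbp6 farthest to the left.

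The starts of 5 genes are printed because their levels anchor the results: Syt1 and Syt2, which moved in opposite directions, Syn1 and Stx1a, which rose, and Stxbp6, with the largest fall. Each is the RefSeq window (GRCm38.p6) of 300 bases, from 250 before to 50 after the annotated start, 5′ to 3′ on the gene's strand. Capitals mark matches on either strand to the GC box GGGCGG, the cAMP response element TGACGTCA, and the left arm TTCAGCACC and right arm GGACAG of the RE1 element, which the repressor REST binds in non-neuronal cells. Windows are at chr10:109010926-109011225 (minus strand) for Syt1, chr1:134646362-134646661 (plus strand) for Syt2, chrX:20920869-20921168 (minus strand) for Syn1, chr5:135023232-135023531 (plus strand) for Stx1a and chr12:45074434-45074733 (minus strand) for Stxbp6.
Syt1: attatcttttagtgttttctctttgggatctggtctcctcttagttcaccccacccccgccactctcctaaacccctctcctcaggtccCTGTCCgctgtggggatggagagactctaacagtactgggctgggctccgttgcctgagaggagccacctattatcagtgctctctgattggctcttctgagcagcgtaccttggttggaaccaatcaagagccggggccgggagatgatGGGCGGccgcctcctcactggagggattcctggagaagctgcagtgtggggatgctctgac
Syt2: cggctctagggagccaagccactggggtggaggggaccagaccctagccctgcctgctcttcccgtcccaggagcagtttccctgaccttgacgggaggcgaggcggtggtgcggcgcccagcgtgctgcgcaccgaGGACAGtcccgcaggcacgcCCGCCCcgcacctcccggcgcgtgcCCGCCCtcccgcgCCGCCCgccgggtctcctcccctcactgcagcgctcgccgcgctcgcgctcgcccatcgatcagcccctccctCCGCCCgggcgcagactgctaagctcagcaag
Syn1: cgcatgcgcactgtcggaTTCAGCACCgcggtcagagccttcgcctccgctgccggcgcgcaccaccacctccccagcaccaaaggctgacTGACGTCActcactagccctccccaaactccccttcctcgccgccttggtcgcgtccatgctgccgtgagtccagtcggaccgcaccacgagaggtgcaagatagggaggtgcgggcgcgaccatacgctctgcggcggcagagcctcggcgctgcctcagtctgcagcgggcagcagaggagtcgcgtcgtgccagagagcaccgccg
Stx1a: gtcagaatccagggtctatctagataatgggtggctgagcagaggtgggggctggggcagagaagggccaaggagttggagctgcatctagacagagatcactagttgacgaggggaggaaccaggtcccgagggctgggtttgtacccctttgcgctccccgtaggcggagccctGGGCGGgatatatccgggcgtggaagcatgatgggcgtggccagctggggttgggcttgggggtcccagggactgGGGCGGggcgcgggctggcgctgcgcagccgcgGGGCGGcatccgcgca
Stxbp6: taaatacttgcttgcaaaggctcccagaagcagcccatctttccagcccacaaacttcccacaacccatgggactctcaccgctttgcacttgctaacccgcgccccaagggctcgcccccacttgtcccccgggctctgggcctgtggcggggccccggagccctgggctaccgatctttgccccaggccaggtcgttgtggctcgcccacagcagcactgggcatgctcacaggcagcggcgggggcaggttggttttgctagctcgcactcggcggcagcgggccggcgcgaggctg

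RefSeq windows were matched for 48 of the 61 genes. For these the window nearest the gene's start was taken, and for the comparison the first window listed for each gene, so the choice differs. The windows of Cplx2 and Stx4a lay 68793 and 17514 bases from that start. The GC box was found in 35 of them (72.9%), beside 35.9% of all 27025 windows in the table and 46.3% of the 17492 protein-coding ones. Among genes higher in IP 76.5% held it, among genes lower in IP 70% and among the 7 not called 100%. The median number of CpG dinucleotides was 20.5 in these windows, 13 in the protein-coding ones and 7 over all. Of the printed starts, Syt2 held 4 GC boxes, Stx1a 3, Syt1 1 and Syn1 and Stxbp6 0. Syn1 was the only one of the 48 with the left RE1 arm (0.359% of all windows), and it shared the cAMP response element with Stxbp3 (1.88% of all windows). The right RE1 arm was found in 9 (18.8%, beside 22.1% of all windows) and a TATA box, TATAAA, in Stx3 and Rab3b (14.2% of all windows). A match is a string in this window and not a known site.

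Of the 3 sensors of fast release, Syt1 and Syt9 were higher in IP and Syt2 lower. Values are given for pools 1 to 4 of each sex. Syt1 (chr10:108497650-109010982, GRCm38 as in the files) stood at 72.6, 59.9, 62.8 and 63.8 scaled TPM in female IN and 62.2, 67.6, 62.6 and 58.4 in male IN. In IP it stood at 118, 94.3, 119 and 182 in females and 116, 126, 113.5 and 131 in males. The lowest IP value, female pool 2, was above every IN value. The means were 63.8 ± 4.50 and 125 ± 25.5 (SD, n = 8), a log2 change of 0.94 ± 0.09 (SE, adjusted p = 3.12e-06).

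Syt2, a sensor known from fast-spiking neurons, went the other way. Its IN values (chr1:134646677-134762593) were 77.65, 63.7, 71.3 and 57.4 in females and 82.6, 97.9, 82.7 and 76.1 in males. Its IP values were 41.4, 49.9, 52.3 and 39.1 in females and 36.9, 84.1, 43.3 and 32.7 in males. Each pool was lower in IP, but male pool 2 IP lay among the IN values, so the groups overlap. The log2 change was -0.71 ± 0.11 (limma, adjusted p = 0.000206). Of 8 large-diameter neuron markers 7 were lower in IP, with Runx3 tested through its IN mean alone. All tested markers of glia and of the other non-neuronal lists were lower too. The part of these cell types in the change of Syt2 was not tested. Syt9, the third sensor, rose from a median of 27.5 (26.2 to 32.5) in IN to 56.8 (49.8 to 69.6) in IP, by 1.02 ± 0.05, with no overlap.

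Among the other calcium-binding synaptotagmins 3 of the 4 tested rose and 1 fell. Syt5, a synaptotagmin found on dense-core vesicles, had the largest rise of all 54 genes. In IN it was even, at 18.5, 17.0, 16.95 and 17.1 in females and 17.99, 18.3, 16.7 and 16.2 in males. In IP it stood at 70.6, 43.2, 62.4 and 76.5 in females and 62.1, 86.4, 71.2 and 56.1 in males. All IP values were more than all IN values, and female pool 2 was the lowest of them. Syt5 rose 3.81-fold between the means (log2 1.84 ± 0.09, adjusted p = 5.23e-08), from 17.4 ± 0.827 to 66.1 ± 13.2.

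Syt7, the high-affinity sensor of slow and asynchronous release, rose from a median of 26.8 (18.7 to 33.5) to 68.2 (58.2 to 88.2), a log2 change of 1.37 ± 0.11 (adjusted p = 8.71e-07). Syt6 rose from 9.89 ± 2.11 to 18.8 ± 5.23 (0.84 ± 0.11). Syt3, by contrast, fell from 11.1 ± 1.06 to 4.97 ± 0.504 (-1.02 ± 0.06), with every IP value below every IN value.

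Of the remaining synaptotagmins, which bind calcium weakly or not at all, 6 were tested, 3 rose and 1 fell. Syt4 and Syt11, regulators of vesicle maturation and recycling, were the 2 highest synaptotagmins in IP. Syt4 went from a median of 104 (88.1 to 124) to 208 (148 to 249), by 0.96 ± 0.05 (adjusted p = 6.32e-08), and Syt11 from 178 (168 to 207) to 297 (235 to 332), by 0.68 ± 0.05. For both genes IN and IP did not overlap. Syt16, tested through its IP mean alone, rose at a low level, from 0.978 ± 0.211 to 2.29 ± 0.509. Syt12 fell from 4.59 ± 0.407 to 2.56 ± 0.248. Syt14 (4.82 ± 0.336 and 5.12 ± 0.909) and Syt15 (0.784 ± 0.143 and 0.916 ± 0.245) did not pass. In the whole family 8 of 13 tested were higher and 3 lower, beside 40.5% and 38.9% of all genes tested. That count holds Syt16 through its IP mean alone and leaves out Syt8, Syt10, Syt13 and Syt17, which were not tested.

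Among the SNAREs of neuronal release Vamp2 and Stx1a were higher in IP and Vamp1 and Snap25 lower. Vamp2 and Vamp1 are the synaptobrevins of neuronal vesicles. Vamp2 (chr11:69088490-69092384) stood at 108, 82.7, 85.9 and 111 in female IN, 91.6, 126, 111 and 84.2 in male IN, 171, 116, 151 and 185 in female IP and 161, 188, 177 and 146 in male IP. Every pool was higher in IP, by a log2 change of 0.69 ± 0.05 (adjusted p = 4.11e-07), though the lowest IP value, female pool 2, was under the highest IN value, male pool 2. Vamp1 (chr6:125215551-125245964) stood at 122.5, 99.1, 115 and 126 in female IN, 125, 139.5, 134 and 121 in male IN, 63.3, 64.0, 61.7 and 69.8 in female IP and 64.6, 77.7, 68.7 and 58.2 in male IP. All its IP values were below its IN values, and the log2 change was -0.88 ± 0.05 (adjusted p = 9.75e-08).

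Stx1a, a plasma membrane syntaxin that pairs with Snap25, rose. Stx1a (chr5:135023482-135051100) stood at 8.81, 10.8, 8.705 and 8.04 in female IN, 10.2, 8.26, 7.88 and 8.61 in male IN, 18.7, 17.9, 20.6 and 19.45 in female IP and 20.1, 18.5, 20.2 and 20.0 in male IP. The groups were far apart, with a log2 change of 1.05 ± 0.06 (adjusted p = 1.45e-07).

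Snap25 (chr2:136713453-136782428) ran from 346 to 580 in IN (median 462) and from 279.9 to 397 in IP (median 325). It fell in all 8 pools by 0.45 ± 0.05 on the log2 scale (adjusted p = 1.47e-05), while the ranges overlapped. On deposited TPM its change was 1.84, that of the median gene.

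**Figure D3:**
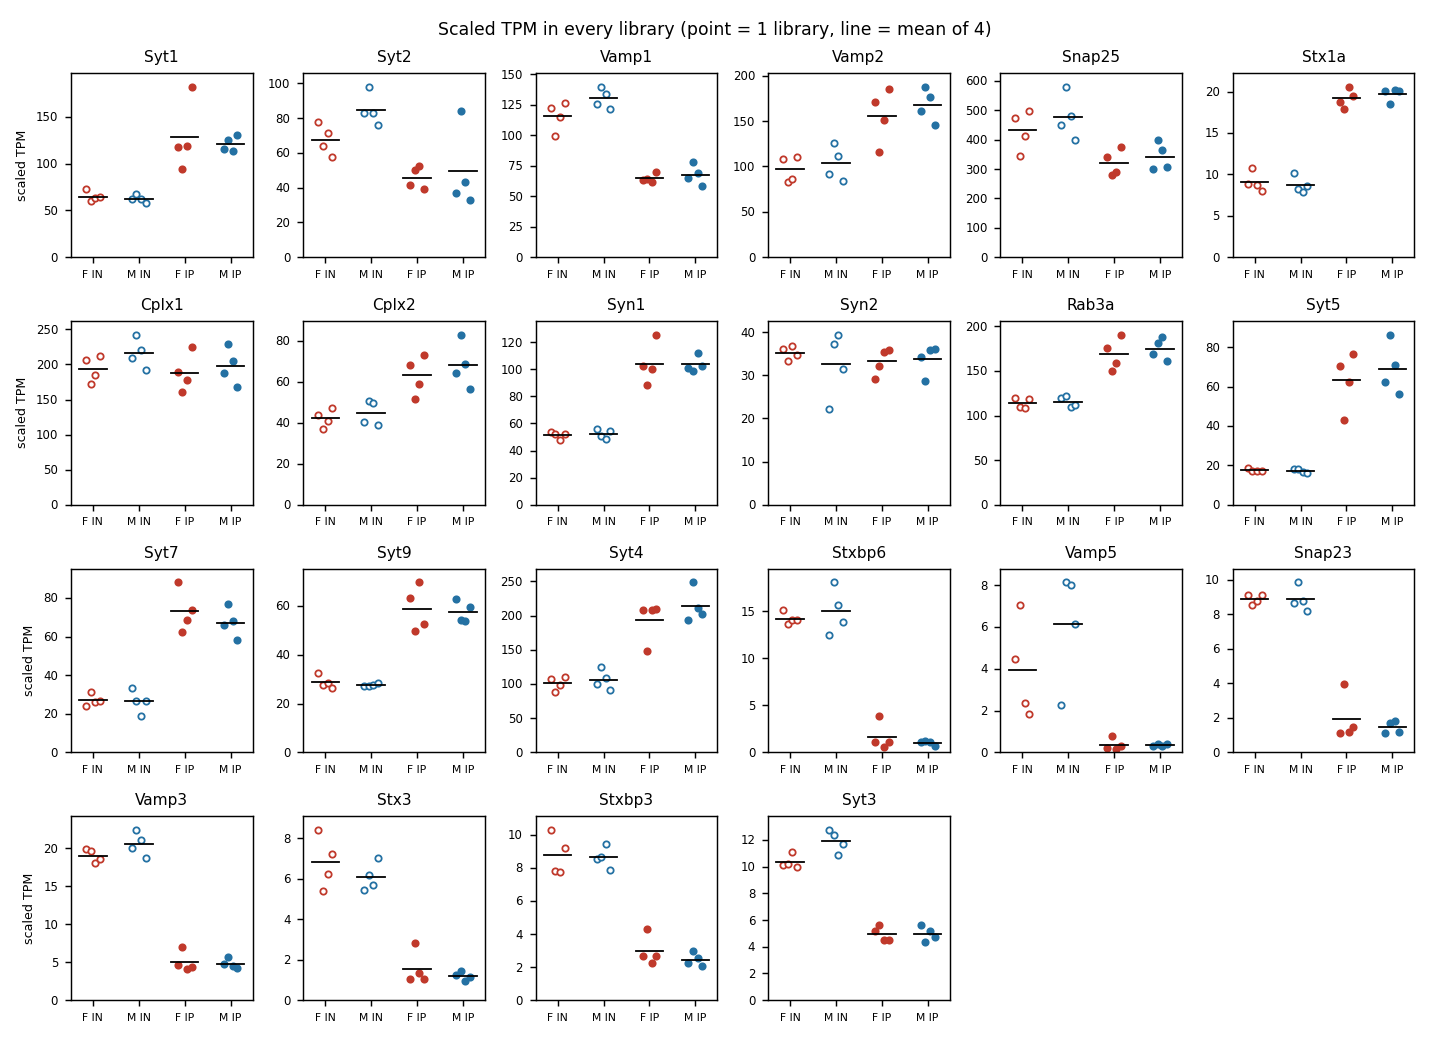
Scaled TPM in every library for 22 of the genes, each panel with its own axis from 0. F and M are female and male, open points IN and filled points IP, and lines are means of 4 pools. Syt5, Stx1a and Syn1 show IP above IN in both sexes and Stxbp6, Snap23 and Vamp3 the reverse, with female pool 2 the highest IP point in those 3.

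Of 9 tested SNAREs of the surface and of vesicles outside the fast release complex 7 were called lower and 2 higher. Beside this, 38.9% of all genes tested were lower and 40.5% higher. The 7 include Vamp5, which was tested through its IN mean alone. Snap23, the relative of Snap25 used in most non-neuronal cells, stood at 9.10, 8.51, 8.74 and 9.09 in female IN, 8.66, 9.85, 8.775 and 8.16 in male IN, 1.11, 3.93, 1.17 and 1.46 in female IP and 1.15, 1.70, 1.79 and 1.17 in male IP. Every IP value was below every IN value, and female pool 2 was the highest in IP. The log2 change was -1.93 ± 0.13 (adjusted p = 3.24e-07) and -2.075 without that pool.

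Vamp3, the synaptobrevin of recycling endosomes in most cells, fell from a median of 19.75 (18.1 to 22.4) to 4.55 (4.09 to 6.965), by 1.83 ± 0.07 on the log2 scale. Vamp5, known from muscle, ran from 1.82 to 8.14 in IN (median 5.30) and from 0.164 to 0.777 in IP (median 0.297), a log2 change of -2.03 ± 0.19. It was tested through its IN mean alone, the fraction where it is high, so its fall is a description only. Stx3, a syntaxin of apical membranes and ribbon synapses, fell from 6.19 (5.39 to 8.41) to 1.18 (0.959 to 2.83), by 1.67 ± 0.14. In all 3 genes no IP value reached an IN value. Vamp8 of late endosomes (12.0 ± 0.719 and 5.40 ± 0.670), Stx11 of immune cells (1.79 ± 0.382 and 0.991 ± 0.242) and Stx4a (26.4 ± 3.54 and 22.3 ± 3.60) were lower too. Sums of the satellite glia, Schwann cell and macrophage markers were lower in every IP library than in any IN library, and their part in these falls was not tested.

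Stx2 and Snap47 were the ones called higher. Stx2, a plasma membrane syntaxin, rose from 29.6 ± 2.36 to 53.9 ± 6.42 (0.84 ± 0.05), and Snap47, a SNAP protein without a membrane anchor, from 52.7 ± 3.57 to 91.4 ± 12.6 (0.77 ± 0.09). In both the groups were apart. Within the Snap genes Snap47 held 10.2% ± 1.86 of the TPM in IN and 20.97% ± 1.61 in IP, while Snap25 held 86.2% ± 2.24 and 76.1% ± 1.74. Snap47 shares 11.6% of its exon bases with Jmjd4 on the other strand, whose level was 4.27 in IN and 6.08 in IP.

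SNAREs of endosomes, Golgi and endoplasmic reticulum moved less, with 5 of 10 higher, 4 lower and a median log2 change of 0.12. These counts are near the shares of all genes tested, 40.5% higher and 38.9% lower. Endosomal Stx7 rose from 53.5 ± 4.23 to 68.3 ± 2.84 (0.35 ± 0.05) and Stx12 from 52.7 ± 4.53 to 62.2 ± 4.93 (0.24 ± 0.04). Vamp4, of the trans-Golgi network, went from 52.3 ± 3.69 to 60.3 ± 3.87 (0.20 ± 0.04). Under quantile normalization Vamp4 and Stx12 were lower instead (-0.12 and -0.089) and Stx7 did not pass (0.013, adjusted p = 0.815). Stx8 and Snap29 were also called higher, by 0.25 and 0.16. Stx17, which acts in autophagosome fusion, fell from 7.12 ± 1.47 to 3.36 ± 0.293 (-0.88 ± 0.09), and Stx16, Stx5a and Stx6 fell by 0.50, 0.37 and 0.36. Stx6 did not pass without female pools 2 and 4 (adjusted p = 0.0505), and Stx18 (0.08 ± 0.08) did not pass in any pool set. Stx18 shares 12.5% of its exon bases with Nsg1 on the other strand, whose level was 33.95 in IN and 13.05 in IP.

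Among the syntaxin-binding proteins, Stxbp2, Stxbp3, Stxbp4, Stxbp5, Stxbp5l and Stxbp6 were lower in IP. Relative to the median gene these 6 kept that sign under each of the other scalings, while on deposited TPM itself Stxbp6 did and the other 5 were higher. Stxbp6, amisyn, which binds syntaxin and inhibits SNARE assembly, had the largest fall in log2 scaled TPM + 1. It stood at 15.2, 13.7, 14.1 and 14.1 in female IN, 12.5, 18.1, 15.7 and 13.8 in male IN, 1.10, 3.90, 0.626 and 1.11 in female IP and 1.09, 1.23, 1.13 and 0.638 in male IP. The means were 14.6 ± 1.70 and 1.35 ± 1.06, 10.8-fold lower in IP. The log2 change was -2.81 ± 0.16 (adjusted p = 1.19e-07) and -2.99 without female pool 2, whose IP value was the highest.

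Stxbp3, the Munc18 protein of most non-neuronal cells, fell from 8.61 (7.74 to 10.3) to 2.59 (2.09 to 4.32), by 1.40 ± 0.09. The tomosyns Stxbp5 and Stxbp5l, which inhibit SNARE assembly, fell by 0.35 ± 0.07 and 0.85 ± 0.07. Stxbp4 fell by 0.78 ± 0.07, and Stxbp2, at 3.66 ± 0.531 and 2.75 ± 0.328, by 0.31 ± 0.07. Under quantile normalization Stxbp2 was at 0.10 and did not pass (adjusted p = 0.299).

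Changes differed within the complexins, synapsins and Rab3 genes, with calls in both directions in the Rab3 genes. Cplx1 was at 172.7 to 243 in IN (median 208) and 161 to 229 in IP (median 189), and its change of -0.09 ± 0.04 did not pass (adjusted p = 0.0749). It passed without female pool 4 (-0.12, adjusted p = 0.0294). Cplx2 rose from 42.25 (37.2 to 50.5) to 66.3 (51.8 to 83.1), by 0.58 ± 0.04, with no overlap.

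Synapsins tether vesicles to actin. Syn1 rose from 52.0 (47.5 to 55.6) to 102 (88.15 to 126), by 0.99 ± 0.06 (adjusted p = 1.55e-07), with the groups apart. Syn2 stood at 35.4 (22.1 to 39.4) in IN and 34.8 (28.6 to 36.05) in IP, a change of -0.01 ± 0.10 that did not pass (adjusted p = 0.953). Syn3 was called higher at a low level, 2.47 ± 0.371 and 2.96 ± 0.295 (0.19 ± 0.06), but not without female pools 2 and 4 (adjusted p = 0.0587). Syn3 shares 14.1% of its exon bases with Timp3 on the other strand, whose own level was 95.6 in IN and 9.55 in IP.

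Rab3a, the main Rab3 of synaptic vesicles, rose from 115 (108 to 122) to 172 (150.3 to 191), by 0.57 ± 0.05 (adjusted p = 9.45e-07). Rab3d, of secretory granules, rose from 12.9 ± 0.843 to 25.9 ± 2.07 (0.95 ± 0.05). In both the groups were apart. Rab3c fell from 51.9 (41.3 to 64.8) to 34.6 (27.6 to 39.7), by 0.60 ± 0.11, also apart. Rab3b (2.98 ± 0.674 and 3.26 ± 0.835) and Snap91 (55.6 ± 4.20 and 53.5 ± 3.47) did not pass.

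Shares within a pair of paralogues do not depend on scaling between libraries. For 6 pairs the share of 1 gene in the summed TPM of both was computed in each library and tested over the 8 pools with an exact sign-flip permutation test (two-sided). In all 6 pairs every pool moved the same way, so each p was 0.00781, the smallest that 8 pools allow, and the same after adjustment over the 8 pairs computed. Of all single genes tested, 33.2% were higher and 33.0% lower in all 8 pools. No such share for other pairs of genes is at hand, so this count is not read as particular to these pairs. Syt2 held 54.2% ± 3.92 of Syt1 and Syt2 in IN and 27.6% ± 7.41 in IP. By pool its IN shares were 51.7, 51.5, 53.2 and 47.3% in females and 57.1, 59.15, 56.9 and 56.6% in males, and its IP shares 26.0, 34.6, 30.6 and 17.7% and 24.2, 40.1, 27.6 and 20.0%. No IP share reached an IN share.

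Vamp2 went from 44.7% ± 2.43 of Vamp1 and Vamp2 to 70.8% ± 2.67, where female pool 2 was the lowest IP library at 64.5% and the other 7 lay between 70.7% and 73.0%. Cplx2 went from 17.5% ± 0.743 of Cplx1 and Cplx2 to 25.3% ± 0.834. The share of Syn2 beside Syn1 went from 39.5% ± 5.19 to 24.4% ± 1.90, though Syn2 itself did not pass, and that of Rab3c beside Rab3a from 30.9% ± 2.37 to 16.5% ± 2.94. Snap23, of non-neuronal use, was minor beside Snap25 in both fractions, at 1.94% ± 0.226 and 0.522% ± 0.352. Without female pool 2 all 6 pairs kept their direction, at the smallest p that 7 pools allow (0.0156, exact sign-flip test). Large-diameter neuron, satellite glia and Schwann cell marker sums were lower in every IP library than in any IN library, and their part in these shares was not tested.

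**Figure D4:**
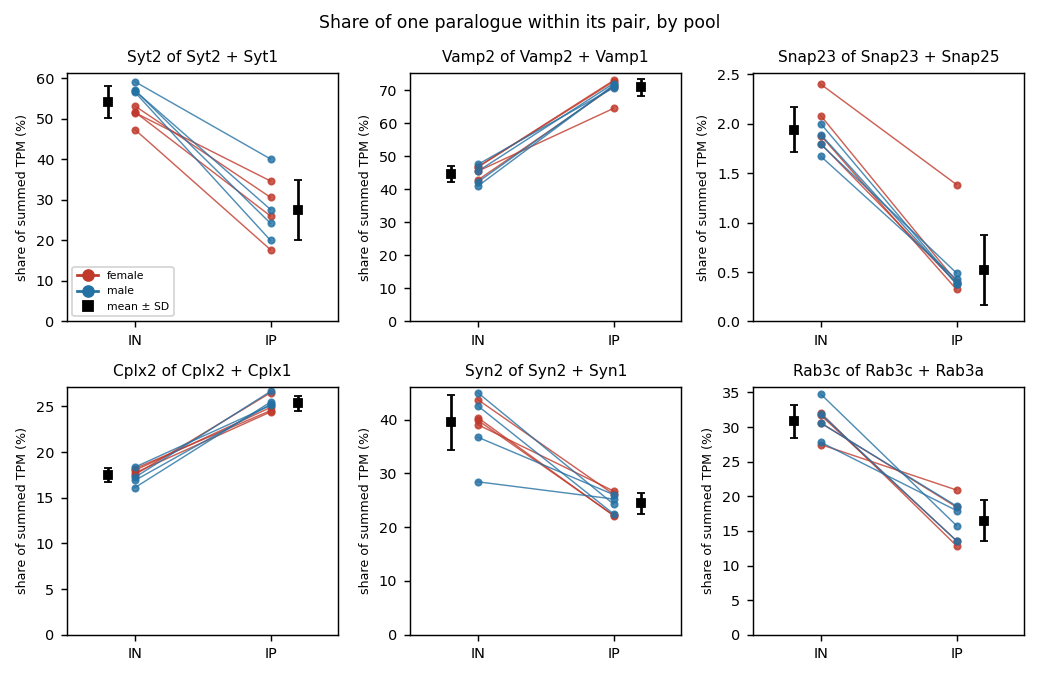
Share of the first named gene in the summed TPM of the pair, in percent, for IN and IP of each pool (lines join a pool, red female, blue male), with mean ± SD over 8 pools as squares. All 8 lines of each panel run the same way. Each panel has its own axis from 0.

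The sexes gave like counts. In female pools alone 20 of the 54 genes were higher in IP and 23 lower (32.5% and 33.6% of all genes), and in male pools 21 and 22 (35.4% and 34.8%). Of these, 20 were higher in both sexes, 21 lower in both and 0 opposite. No share of all genes called alike in both sexes is at hand, so these counts are not read as particular to the set. Syt5 rose by 1.77 ± 0.13 in female and 1.92 ± 0.10 in male pools, and Stxbp6 fell by 2.64 ± 0.27 and 2.99 ± 0.10. No gene passed the interaction of sex and fraction (0 of 54 in limma, 0 at unadjusted p under 0.05, smallest adjusted p = 1, 0.0186% of all genes called). The 3 with the smallest p there, none passing, were Stx18 (-0.32 ± 0.14), Syt3 (0.18 ± 0.12) and Vamp5 (0.55 ± 0.36), as female minus male.

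Female and male pools were also compared within each fraction. In IN 0 of 51 tested genes passed (3 at unadjusted p under 0.05, smallest adjusted p = 0.961, 0.0824% of all genes called). In IP 0 of 53 passed (1 at unadjusted p under 0.05, smallest adjusted p = 0.9999 (limma), 0.0507% of all genes called). The nearest in IN was Syt2, at 67.5 ± 8.83 in female and 84.8 ± 9.26 in male pools (log2 female minus male -0.33 ± 0.11), followed by Syt3 (10.3 ± 0.505 and 11.9 ± 0.818) and Syt6 (11.1 ± 2.10 and 8.65 ± 1.36). In IP they were Stx18 (8.36 ± 0.970 and 10.5 ± 1.89), Rab3d (24.5 ± 1.93 and 27.2 ± 1.24) and Syt16 (2.54 ± 0.216 and 2.04 ± 0.628). Among the paralogue shares, that of Syt2 in IN was 50.9% ± 2.50 in female and 57.4% ± 1.17 in male pools with no overlap (exact permutation test, p = 0.0286, the smallest 4 against 4 allows). It did not hold after adjustment over 16 tests (adjusted p = 0.457).

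Genes that work with the fusion machinery but fall outside the symbols were read as 8 lists. In the active zone, where release sites are built, 12 of 20 tested were higher and 6 lower (median 0.29). The 12 include Unc13d, tested through its IP mean alone, at 0.536 ± 0.177 in IN and 0.992 ± 0.245 in IP. Rims3 rose most (1.22 ± 0.10, from 10.3 ± 0.854 to 26.0 ± 5.87) and the scaffold Rimbp2 fell most (-1.12 ± 0.10). The priming factors Unc13a (0.51 ± 0.06) and Unc13b (-0.75 ± 0.08) differed in direction, as did Cadps (0.54 ± 0.05), which primes dense-core vesicles, and Cadps2 (-1.11 ± 0.05).

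Of 17 vesicle membrane proteins 10 were higher and 3 lower (median 0.23), from Svop (1.27 ± 0.08) to Scamp2 (-0.95 ± 0.05). Synaptophysin, Syp, rose from 127 ± 9.70 to 191 ± 21.2, and of the vesicle glycoproteins Sv2a and Sv2c rose (0.23 and 0.18) and Sv2b fell (-0.34). Of 11 genes that recycle or chaperone SNAREs 7 were higher and 2 lower (median 0.24). Sncg, gamma-synuclein, rose most, from 745 ± 36.9 to 2464 ± 303 (1.72 ± 0.09). Nsf, the ATPase that takes SNARE complexes apart, rose by 0.33 ± 0.05.

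Vesicle endocytosis genes were even, with 10 of 22 higher and 9 lower (median -0.04), from Ap2s1 (1.03 ± 0.19) to Ston1 (-2.23 ± 0.14). Of the dynamins, Dnm1 rose (0.56 ± 0.07), Dnm2 fell (-0.65 ± 0.08) and Dnm3 did not pass (-0.07 ± 0.04). Synj1 and Sh3gl2 fell (-0.83 ± 0.09 and -0.31 ± 0.07), and Amph did not pass (-0.01 ± 0.04). The exocyst, which tethers vesicles in all cells, had 3 of 9 subunits higher and 3 lower, between -0.37 ± 0.05 (Exoc5) and 0.27 ± 0.07 (Exoc7). Of 5 tested Rab27 genes and effectors 3 were higher and 1 lower, led by Rab27b (1.22 ± 0.12), with Myrip lowest (-0.78 ± 0.06). Of 9 Rab3 regulators 5 were higher and 2 lower, with Rab3il1 lowest (-2.25 ± 0.14). Of 12 SNAREs with other names 6 were higher and 2 lower, from Vti1b (0.70 ± 0.07) to Vti1a (-0.25 ± 0.03). The background for all these counts is again 40.5% higher and 38.9% lower, and the lists were not tested as sets.

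**Figure D5:**
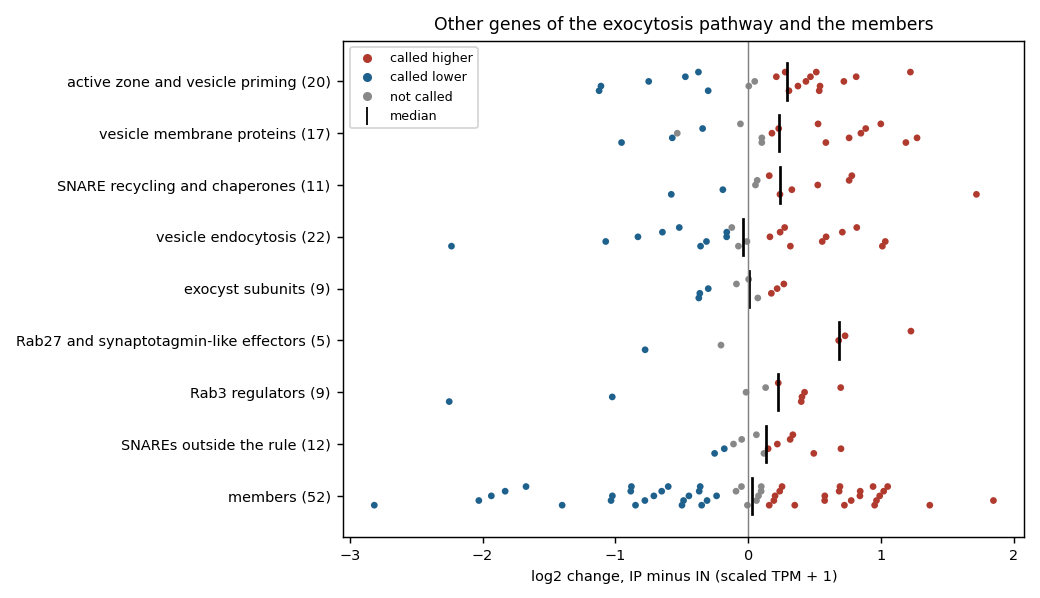
Log2 change, IP minus IN, of scaled TPM + 1 for the tested genes of 8 lists of the exocytosis pathway and for 52 tested genes chosen by symbol (bottom row), 1 point per gene and a black bar at the median. Medians of the 8 lists run from -0.04 (endocytosis) to 0.68 (Rab27 and effectors).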

How the data were processed

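RNA-seq libraries came from 8 pools of dorsal root ganglia, each with an IN and an IP library. Libraries were made with ribosomal RNA depletion, per the labels' protocols. FastQC, STAR 2.2.1, StringTie 1.3.5 and GRCm38.p5 were used, per the submitters' processing notes. The annotation release and whether strand was used are not recorded in the labels. Values deposited by the authors were taken to be TPM, since each library sums to 1000000, although the header line of the files reads Coverage. Depth per sample is unknown, so no count test or interval was used.

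TPM were scaled by the median of ratios (factors 0.375 to 0.532 in IN, 1.65 to 2.69 in IP), and log2(scaled TPM + 1) was fitted with limma 3.58.1 (R 4.3.3, intensity trend), two-sided, on all genes with a mean deposited TPM of at least 1 in either fraction. P-values were adjusted by Benjamini-Hochberg over all genes tested, threshold 0.05. IP against IN and the interaction had the pool as a block; the sexes were compared without one. The 92 ERCC entries were left out. The fit was also run on simulated data. The outcome is not given here, so the power of the sex comparisons is not stated. Correlations between libraries of a group, across genes, were 0.963 to 0.987, and 0 pairs were identical.

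The design text of the series pairs the IN and IP library of each pool. Deviations from the group means correlated within pools at 0.01, 0.12, 0.20 and 0.41 in females and 0.01, 0.28, 0.21 and 0.32 in males. Among IP libraries of its sex, IN correlated best with that of its own pool except in female pool 1 and male pool 1.

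Genes were chosen by symbol. Values are given for 11 genes of the release machinery and the 6 largest rises and 6 largest falls with 1 sign in every pool. Other genes of the set are given by level or change, list genes mainly by the extremes, and for the sexes the 3 smallest p where fewer than 3 passed; list genes named besides the extremes were chosen after their values were seen. The genes and lists were chosen with earlier results of these data known. Some results of the set, among them 2 of the 8 paralogue pairs computed, are not reported here. Alternatives were another pseudocount (0.1), no filter, 3 other scalings, no block or a replicate block, and each pool left out.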

Additional observations from a re-analysis of the deposited data

Results flagged for a closer look

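For the 21 genes named with values in all libraries, the highest and lowest of each group of 4 were compared with the rest by Dixon's criterion, over 84 groups, of which chance flags about 1 in 20. In 6 a library stood apart. IP of female pool 2 was the highest of its group for Stxbp6 (3.90 scaled TPM, the others 0.626 to 1.11), Snap23 (3.93, the others 1.11 to 1.46) and Stx3 (2.83, the others 1.02 to 1.32), and the lowest for Syt4 (148, the others 208 to 209). That library had the lowest protein-coding share (44.9%) and the lowest nociceptor marker sum, and the median size of the change over the 54 tested genes was 0.47 there and 0.62 to 0.77 in the other pools. Without it the log2 changes were -2.99 for Stxbp6, -2.075 for Snap23, -1.81 for Stx3 and 0.996 for Syt4, each with the direction and call unchanged; the part of that library's makeup was not tested. Stx1a was lowest in IP of male pool 2 (18.5, the others 20.0 to 20.2). Syt5 was highest in IN of female pool 1 (18.5, the others 16.95 to 17.1).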

How the results depend on the processing

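Of 52 tested genes 52 kept direction and call with a pseudocount of 0.1, without the filter and with no replicate block, where the counts were again 23 higher and 24 lower. With a replicate block for the sexes 0 genes passed in IN and 0 in IP, as without it. Female and male pools of a number did not deviate together in IN (correlations -0.06, -0.30, 0.09 and -0.15) or IP (0.01, 0.10, -0.04 and -0.22), and 0 of them correlated best with its own number. Paralogue shares kept 8 of 8 pairs with log2 ratios, with no replicate block and without any 1 pool.

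On deposited TPM the counts were 49 higher and 2 lower over all pools, 49 and 2 in female and 50 and 2 in male pools; this scale puts the median gene at 1.84. There 22 of the 52 changed sign: Stxbp2 1.41, Syn2 2.21, Stx5a 1.70, Stxbp5 1.77, Stxbp4 0.83, Rab3c 1.63, Stxbp5l 1.16, Syt2 1.54, Stx6 1.65, Snap25 1.84, Stx16 1.645, Stxbp3 0.48, Vamp3 0.23, Vamp1 1.38, Syt3 0.99, Stx4a 1.95, Snap91 2.19, Cplx1 2.18, Stx11 0.81, Syt12 1.11, Vamp8 0.997 and Stx17 1.01. The Syt3 interaction became -0.059. Under quantile normalization Stxbp2 was 0.10, Vamp4 -0.12 and Stx12 -0.089. Under the protein-coding total Rab3b was -0.081, Syt14 -0.14, Snap29 -0.058, Vamp4 -0.031, Stx18 -0.14 and Syt15 -0.011. Syn2, near 0, ranged from -0.094 to 0.045 when single pools were left out. Without the filter 35913 genes were tested and 32.8% of calls were higher. Without female pools 2 and 4, an alternative chosen after seeing the data, the counts were 22 higher and 24 lower. Depth is unknown, so levels near 1 scaled TPM, such as those of Syt15 and of Stxbp6 in IP, have an unknown counting error.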
